A study of Mus musculus with 14 samples.

Results

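The comparison described here sets 4 libraries with a hairpin against exon 9 of Suv4-20h2 (titled shSuv4-20h2_#2, here hairpin 2) against the 4 control libraries made for it (titled shCtrl_#2, here control 2), chosen by those titles, which is 8 of the 14 libraries of the series. All came from mouse APT organoids, a line of tumor organoids labelled as small intestinal, and the labels do not spell out the alleles behind the name APT. The genotype was given as control2 or Suv4-20h2 knockdown2, and each group was 1 hairpin clone. With 1 clone per group, the hairpin and any other difference between the clones cannot be told apart. Both groups, the controls included, were kept for 4 days in 0.5 µg/ml doxycycline, which switches the hairpins on. Replicates were numbered 1 to 4 in both groups. The labels do not say whether the replicates were grown separately, so the p-values given here reflect library-to-library spread that may be technical only.

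Suv4-20h2, whose current symbol is Kmt5c, encodes an enzyme that adds methyl groups to lysine 20 of histone H4, a mark of compact, silent chromatin. In the intestine, stem cells at the base of crypts give rise to absorptive enterocytes, which carry a brush border of microvilli, and to secretory goblet, Paneth, tuft and enteroendocrine cells. Transcription factors of the HNF4 and CDX families switch on much of the enterocyte programme, and tumors with a lesion in the Wnt pathway often hold back that programme while keeping stem cell genes on. A short hairpin RNA lowers its target transcript through the RNA interference machinery.

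Total counts ran from 9272134 to 26284079 per library, and hairpin 2 replicates 3 and 4 were the shallowest. A principal component with 41.4% of the variance parted the groups, and the next, with 30.8%, set replicate 4 of both groups apart from the other 3 replicates. Levels are given in CPM, the count scaled to the total of its library, which carry no correction for gene length. Epithelial and intestinal genes were high in every library: Epcam ran from 1020 to 1330 CPM, Vil1 from 279 to 339 CPM and Cdx2 from 192 to 242 CPM. Genes of brush border enzymes differed in level: Sis was at most 0.0501 CPM, Lct at most 0.273 CPM and Alpi at most 0.802 CPM, while Mgam and Ace, chosen after their values were seen, had means of 76.6 and 207 CPM in control 2. The posterior gene Hoxb13 ran from 208 to 279.5 CPM. The marker Ptprc of immune cells was at most 0.136 CPM and Col1a1 of fibroblasts at most 0.687 CPM. Under 1 CPM in all libraries were 4 of 5 listed immune cell genes and 7 of 12 listed fibroblast and smooth muscle genes. Other members of these lists were higher. In control 2 the immune cell gene Cd68 had a mean of 16.2 CPM, and the fibroblast list genes Fn1 and Mgp had 216 and 487 CPM.

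The hairpin's own target came first. Kmt5c (ENSMUSG00000059851, GRCm38 chromosome 7, 4740115 to 4747514, plus strand) stood at 129, 121, 116 and 128 CPM in control 2 and 114, 111, 99.3 and 106 CPM in hairpin 2. The groups did not overlap, but the log2 fold change was only -0.20 (SE 0.0620, edgeR adjusted p = 0.098), and it passed the threshold of 0.05 with the replicate number as a block (adjusted p = 0.0074). Its paralog Kmt5b, which encodes the enzyme Suv4-20h1, was at 0.14 (SE 0.0900, edgeR adjusted p = 0.43), with an adjusted p of 0.043 under the block. Neither protein nor histone methylation was analysed here.

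Without the replicate block more genes were lower than higher in hairpin 2, and the large changes were decreases. Of 14126 genes tested with edgeR's quasi-likelihood test at a Benjamini-Hochberg adjusted p under 0.05, 566 were lower (4.01%) and 288 were higher (2.04%), 854 in all (6.05%). Over 2-fold, 283 were lower (2.00%) and 21 higher (0.149%), and 120 were over 4-fold lower (0.849%). The lowered genes kept a median of 49.9% of their control level, with a median log2 fold change of -1.01 and quartiles of -1.86 and -0.47. The raised genes reached a median of 127.6% of theirs, and 241 of the 288 rose by less than 1.5-fold. In all 566 lowered genes the 4 hairpin 2 libraries lay below the 4 control 2 libraries, and in 284 of the 288 raised genes above them. Over all genes tested, the groups did not overlap in 1190 with lower levels in hairpin 2 (8.42%) and 972 with higher ones (6.88%). The median log2 fold change of all genes tested was 0.005. With the replicate number as a block 10.1% of genes were called lower and 10.2% higher, so the excess of lowered calls was not seen there, and list counts with the block are to be read against these shares.

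**Figure D1:**
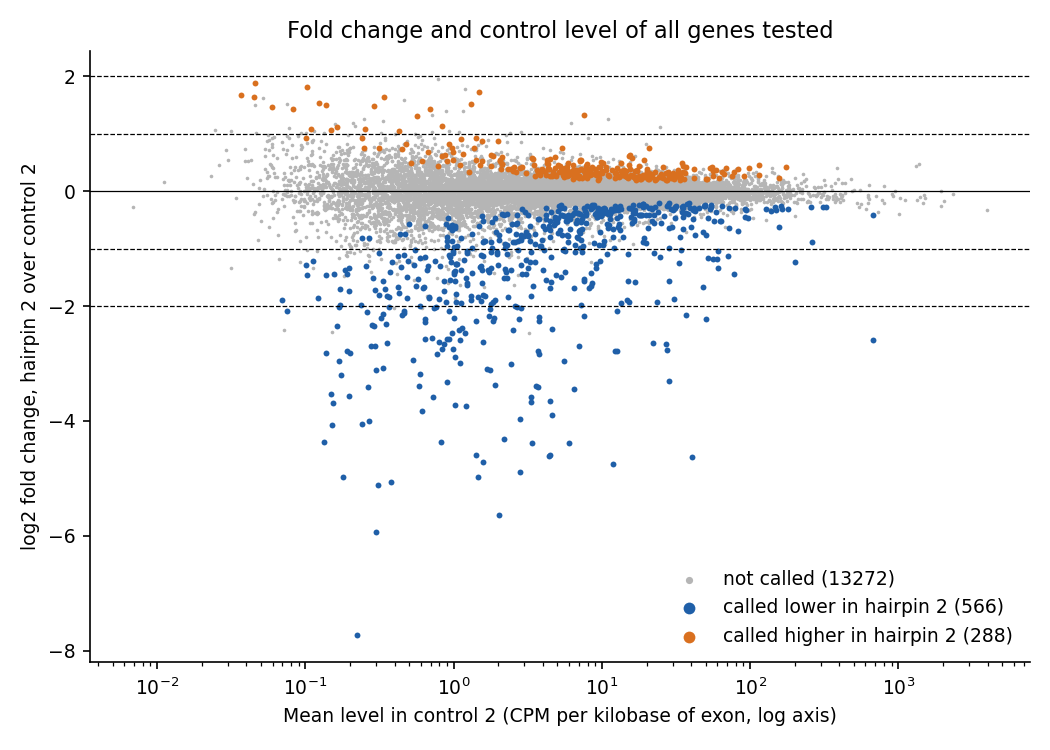
Each point is 1 of the genes tested, with its mean level in control 2 per kilobase of exon on a log axis and its log2 fold change (hairpin 2 over control 2) on the vertical axis. Genes called lower reach far below a 4-fold decrease (dashed lines mark 2-fold and 4-fold changes), mostly at low control levels, and no gene called higher exceeds 4-fold. The lowest point is a gene with no count in hairpin 2, so its position depends on the fit.

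Genes that nearly vanished in hairpin 2 came from varied classes. Efcab12, which encodes an EF-hand protein, had the largest decrease under the naming rule, with 4.63, 4.96, 4.70 and 7.30 CPM in control 2 and 0.134, 0.0395, 0.325 and 0 CPM in hairpin 2. Its log2 fold change was -5.64 (SE 0.432, edgeR adjusted p = 5.4e-05), resting on 7 counts over the 4 hairpin 2 libraries against 506 over the 4 controls. Fmnl1, a formin that elongates actin filaments, had 7.41, 9.42, 7.45 and 4.25 CPM in control 2 and 0.223, 0.158, 0.649 and 0 CPM in hairpin 2. Its log2 fold change was -4.97 (SE 0.468, edgeR adjusted p = 2.2e-04). In both genes hairpin 2 replicate 4 had no count, and every control library lay far above every hairpin library.

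Chromatin and signalling genes stood among the same large decreases. H1fx, a linker histone variant, had 7.31, 5.41, 5.16 and 3.93 CPM in control 2 and 0.134, 0.197, 0.108 and 0.498 CPM in hairpin 2, a log2 fold change of -4.59 (SE 0.359, edgeR adjusted p = 6.2e-05). H2afy2, a macroH2A histone variant, had 8.18, 9.02, 6.87 and 4.86 CPM in control 2 and 0.490, 0.473, 0.649 and 0.747 CPM in hairpin 2, a log2 fold change of -3.67 (SE 0.263, edgeR adjusted p = 3.3e-05). In both, control 2 replicate 4 was the lowest control library and still lay far above every hairpin library. The Ral exchange factor gene Rgl3 had 16.3, 18.1, 16.4 and 18 CPM in control 2 and 0.624, 0.513, 0.757 and 1.08 CPM in hairpin 2, a narrow spread in each group. Mpp1, a membrane scaffold protein, fell from 23.9 ± 3.25 to 2.12 ± 1.03 CPM (SD, n = 4 each), and Nlrp6, an innate immune sensor of intestinal epithelium, from 19 ± 3.06 to 1.87 ± 0.455 CPM (SD, n = 4 each). Car13, a cytosolic carbonic anhydrase, fell 21.4-fold, from 7.70 to 0.360 CPM.

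Other large decreases were in Trim35 (-4.89), which encodes a RING-finger protein, the tyrosine kinase gene Ptk2b (-4.72), Dynlt3 (-4.74), Bex1 (-4.63), Itih5 (-4.32) and the ADP receptor gene P2ry1 (-3.90). Igf2bp3, an oncofetal RNA-binding protein, had 15.4, 16.3, 17.3 and 12.7 CPM in control 2 and 1.47, 1.74, 1.41 and 1.16 CPM in hairpin 2, a log2 fold change of -3.37 (SE 0.157, edgeR adjusted p = 3.9e-06). Car9, a membrane carbonic anhydrase known as a target of the hypoxia response, had 68.7, 67.2, 63 and 56.2 CPM in control 2 and 10.5, 8.17, 11.9 and 7.31 CPM in hairpin 2, a log2 fold change of -2.76 (SE 0.139, edgeR adjusted p = 3.9e-06). Of 25 tested hypoxia response genes Car9 and Car12 (-2.79) were lower and none was higher without the block, with a list median of 0.02, and 5 were lower and 3 higher with it. These genes lay on chromosomes 3, 4, 6, 9, 14 and X among others, so the large decreases were not in 1 place. Some lay close together, however. Ptk2b (66153257 to 66281052) and Trim35 (66297031 to 66311424) are near each other on chromosome 14. Car13 (14641727 to 14663002) lies near Car1, described below, on chromosome 3, and Dynlt3, Bex1 and Mpp1 all lie on X.

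Promoter sequences are shown for 4 lowered and 2 raised genes to let a reader see what kind of start sites they have. They were chosen after the values were seen. They are the 250 bases before the RefSeq start site on GRCm38.p6, 5′ to 3′ on the gene's strand, with each CpG in capitals. The lowered genes included starts poor in CpG and starts rich in it, and so did the raised genes.

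Krt20 (chr11:99438154-99438403, minus strand), lowered, 5 CpG: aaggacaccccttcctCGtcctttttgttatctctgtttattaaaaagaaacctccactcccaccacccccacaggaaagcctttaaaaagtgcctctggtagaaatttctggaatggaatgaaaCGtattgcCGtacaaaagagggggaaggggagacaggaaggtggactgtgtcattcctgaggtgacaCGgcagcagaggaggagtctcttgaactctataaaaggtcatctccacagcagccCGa
Nlrp6 (chr7:140920652-140920901, plus strand), lowered, 3 CpG: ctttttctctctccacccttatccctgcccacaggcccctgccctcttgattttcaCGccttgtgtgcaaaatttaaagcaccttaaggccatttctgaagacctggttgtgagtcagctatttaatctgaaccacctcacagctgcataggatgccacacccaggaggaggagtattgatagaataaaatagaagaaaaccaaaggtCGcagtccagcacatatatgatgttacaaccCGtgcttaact
Fmnl1 (chr11:103170888-103171137, plus strand), lowered, 34 CpG: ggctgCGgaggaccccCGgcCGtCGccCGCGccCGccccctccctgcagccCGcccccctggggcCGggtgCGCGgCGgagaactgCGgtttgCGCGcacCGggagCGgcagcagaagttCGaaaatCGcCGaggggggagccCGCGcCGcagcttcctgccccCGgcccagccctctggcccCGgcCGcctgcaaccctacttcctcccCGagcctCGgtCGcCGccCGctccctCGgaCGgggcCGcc
Igf2bp3 (chr6:49214955-49215204, minus strand), lowered, 21 CpG: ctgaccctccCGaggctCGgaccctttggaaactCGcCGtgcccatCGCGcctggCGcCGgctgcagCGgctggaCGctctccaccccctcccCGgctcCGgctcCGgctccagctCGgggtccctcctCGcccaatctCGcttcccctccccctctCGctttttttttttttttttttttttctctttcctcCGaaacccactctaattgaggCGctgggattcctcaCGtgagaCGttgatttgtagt
Krt34 (chr11:100041555-100041804, minus strand), raised, 4 CpG: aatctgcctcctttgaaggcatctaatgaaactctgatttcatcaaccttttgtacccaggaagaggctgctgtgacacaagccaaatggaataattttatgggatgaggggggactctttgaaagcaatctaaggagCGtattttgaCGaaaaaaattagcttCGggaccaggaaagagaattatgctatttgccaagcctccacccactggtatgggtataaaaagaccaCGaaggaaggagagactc
Gpc3 (chrX:52613975-52614224, minus strand), raised, 25 CpG: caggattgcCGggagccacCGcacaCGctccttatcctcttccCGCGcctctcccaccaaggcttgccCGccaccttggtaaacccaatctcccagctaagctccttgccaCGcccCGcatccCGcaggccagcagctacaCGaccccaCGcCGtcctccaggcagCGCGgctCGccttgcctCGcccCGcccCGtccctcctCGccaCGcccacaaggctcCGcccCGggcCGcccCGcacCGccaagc

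Over all 32851 promoters in the RefSeq table, the median was 7 CpG in 300 bases, with quartiles of 3 and 20. On the same 300 bases, which run to 50 past the start, the 6 genes had 6, 3, 43, 25, 4 and 30 CpG in the order printed. The letters CAAAGTCCA, a core of the HNF4 motif, were found on either strand in none of the 6 and in 0.475% of all promoters. The letters TTTATNG, a core of the CDX motif, were found once each in Krt20 and Krt34 and in 10.9% of all promoters. In Krt20 the match lies on the opposite strand, close to the start site. A match of letters does not show a bound site, and binding was not tested. A comparison of whole groups of genes was void, because 71.7% of the genes over 4-fold lower and 72.9% of all genes tested had a promoter sequence, under the 80% required.

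Genes with large counts in control 2 fell too. Car1, a carbonic anhydrase typical of colon epithelium (ENSMUSG00000027556, GRCm38 chromosome 3, 14766216 to 14808368, minus strand), had 677, 813, 759 and 1143 CPM in control 2 and 139.9, 122, 151 and 152 CPM in hairpin 2. It was 6.02-fold lower, a log2 fold change of -2.59 (SE 0.157, edgeR adjusted p = 1.0e-05). Lgals4, a galectin of intestinal epithelium, fell from 466 ± 61.1 to 197 ± 8.58 CPM (SD, n = 4 each), and Ceacam1, an epithelial adhesion molecule, from 326 ± 29.8 to 144 ± 1.07 CPM (SD, n = 4 each). Ceacam1 had 143, 144, 146 and 144 CPM in hairpin 2, so the 4 libraries agreed closely. Tmsb4x, which encodes the actin-binding peptide thymosin beta-4, fell from 83.1 ± 5.04 to 32.9 ± 3.57 CPM (SD, n = 4 each). Pfkp, a phosphofructokinase isoform of glycolysis, had 185, 181, 202 and 221 CPM in control 2 and 42.2, 43.7, 49.6 and 78.1 CPM in hairpin 2, with replicate 4 the highest in both groups. Of the list of glycolysis and lactate transport, 4 of 22 tested members were lower and none higher, with a median of -0.06, and 5 were lower and 1 higher with the block. The 4 were Pfkp, the phosphofructokinase gene Pfkm (-0.33) and the lactate transporter genes Slc16a3 (-0.49) and Slc16a1 (-0.32).

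Markers and machinery of differentiated enterocytes were among the lowered genes. Of 11 tested enterocyte markers 6 fell and none rose, with a list median of -0.90. Krt20, a keratin of differentiated intestinal epithelium (ENSMUSG00000035775, GRCm38 chromosome 11, 99428403 to 99438150, minus strand), had 39.1, 39.9, 43.6 and 47.3 CPM in control 2 and 7.62, 5.05, 7.36 and 7.39 CPM in hairpin 2, a log2 fold change of -2.65 (SE 0.134, edgeR adjusted p = 3.9e-06). Fabp2, the intestinal fatty acid binding protein, fell from 3.23 to 0.289 CPM and the sodium-glucose cotransporter gene Slc5a1 from 10.9 to 2.85 CPM. Vil1, the villin gene, chosen after its values were seen, was at -0.06 (edgeR adjusted p = 0.64) and did not pass. Many classical enterocyte genes were hardly expressed in either group: 8 of the 19 markers listed stayed under 1 CPM in all 8 libraries.

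The brush border list fell in part. Of 24 tested members 10 were lower and none was higher, with a median of -0.23. Myo1a, the brush border myosin, had 21.5, 20.1, 25.2 and 28.8 CPM in control 2 and 8.43, 6.51, 8.87 and 5.98 CPM in hairpin 2, a log2 fold change of -1.69 (SE 0.156, edgeR adjusted p = 2.0e-04). Cdhr2, a protocadherin that links the tips of microvilli, had 28.6, 29.8, 31.3 and 49.99 CPM in control 2 and 10.5, 10.2, 11.1 and 13.1 CPM in hairpin 2, a log2 fold change of -1.65 (SE 0.185, edgeR adjusted p = 6.5e-04). Ush1c, a scaffold that binds those protocadherins, was at -0.87 and Baiap2l2, a membrane-bending protein of microvilli, at -1.45. Espn, an actin bundler chosen here after its values were seen, was at 0.36 and passed as higher only with the block (adjusted p = 2.8e-04, against 0.096 without it, both from edgeR).

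Transcription factors of the intestine split. Of 35 tested, 7 fell and 3 rose, with a median of 0.01. Hnf4a, a nuclear receptor of enterocyte differentiation, had 283, 314, 308 and 277 CPM in control 2 and 159, 154, 159.8 and 101 CPM in hairpin 2, a log2 fold change of -1.04 (SE 0.131, edgeR adjusted p = 0.0014), with hairpin 2 replicate 4 the lowest. Cdx1, a homeobox factor of intestinal identity, had 41.2, 42.1, 36.3 and 45.3 CPM in control 2 and 11.8, 10.8, 13 and 7.89 CPM in hairpin 2, a log2 fold change of -1.92 (SE 0.134, edgeR adjusted p = 2.6e-05). Isx, an intestine-specific homeobox factor that regulates vitamin A uptake, had 48.2, 51, 53.5 and 51.4 CPM in control 2 and 16.5, 17.8, 22.8 and 12.4 CPM in hairpin 2, a log2 fold change of -1.56 (SE 0.142, edgeR adjusted p = 1.9e-04). Gata4, a factor of proximal small intestine, went from 2.31 to 0.274 CPM. The nuclear receptor genes Vdr (-1.43), Nr1i2 (-1.33) and Nr5a2 (-1.24) also fell. Cdx2, the homeobox factor that specifies intestine, did not pass (-0.06, edgeR adjusted p = 0.74), nor did Hnf4g (0.13, adjusted p = 0.73). The 3 that rose were Foxa2 (138 to 178 CPM), Zfp503 (177 to 232 CPM) and Id2 (223 to 269 CPM). With the replicate block 10 of the 35 were higher and 7 lower. Vdr, Nr1i2, Nr5a2, Cdx2, Hnf4g, Foxa2 and Zfp503 were chosen after their values were seen.

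Transport proteins, mucins and detoxifying enzymes followed. Of 29 tested nutrient and ion transport genes 9 fell and 1 rose, with a median of -0.27, and under the block 16 were lower and 4 higher. The chloride channel gene Cftr went from 4.98 to 1.06 CPM and the lactate transporter gene Slc16a3 from 219 to 156 CPM. The 1 that rose was Slc9a3, a sodium-proton exchanger of the brush border, with 197, 185, 198 and 179.5 CPM in control 2 and 263, 281, 262 and 266 CPM in hairpin 2. Slc9a3 lies on chromosome 13, whose median is given below.

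Of 20 tested genes of membrane mucins and glycosylation 8 fell and 1, St3gal1 (0.22), rose, with a median of -0.36. Muc13, a membrane mucin, had 94.3, 110.5, 101 and 275 CPM in control 2 and 37.1, 37.2, 36.5 and 72 CPM in hairpin 2, a log2 fold change of -1.68 (SE 0.371, edgeR adjusted p = 0.026). Control 2 replicate 4 stood far above the other controls in Muc13, and the call was lost in 3 of the 8 fits that left out 1 library (edgeR adjusted p up to 0.09). Muc3 (-4.39) and Muc3a (-3.00) are near-identical relatives, so their counts are uncertain. Gcnt3, a mucin-type glycosyltransferase chosen after its values were seen, fell from 41.8 to 18.1 CPM. Under the block 12 were lower and 4 higher.

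Of 28 tested xenobiotic and retinoid genes 7 fell and 1 rose, with a median of -0.31, and under the block 13 were lower and 4 higher. Cyp4f14, a cytochrome P450, went from 6.04 to 1.16 CPM, the glutathione transferase gene Gsta4 from 66.2 to 29.6 CPM and the alcohol dehydrogenase gene Adh1 from 50.3 to 23.9 CPM. The 1 that rose was Gsta3, another glutathione transferase, from 233 to 307 CPM. The P450 and glutathione transferase genes have close relatives, and reads shared between them cannot be told apart here.

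Genes that hold epithelial sheets together were lower in part. Of 28 tested genes of simple keratins, adherens junctions and desmosomes 10 fell and none rose, with a median of -0.18, and under the block 16 were lower and 1 higher. The largest decrease among the 10 was that of Krt20, which the enterocyte list holds too. Krt8, a keratin of simple epithelia, had 503, 509, 526 and 499.8 CPM in control 2 and 297, 293, 308 and 203 CPM in hairpin 2, a log2 fold change of -0.89 (SE 0.115, edgeR adjusted p = 0.0016). Its partner Krt18 was at -0.41 and the desmosomal cadherin gene Dsc2 at -0.40. Among 25 tested tight junction genes 3 were lower and 1 higher, led by the claudin genes Cldn15 (-1.43) and Cldn2 (-1.14), while Cldn8 (0.35) was higher. Tmprss2, a membrane serine protease of epithelia, fell from 523 ± 23.9 to 335 ± 15.8 CPM (SD, n = 4 each). Of 11 tested mesenchymal transition genes 0 passed edgeR in either direction and 2 were higher with the block, and Vim was at 0.41 (edgeR adjusted p = 0.14), from 3.52 to 4.73 CPM.

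Secretory and stem cell lists also had lowered members. Of 14 tested goblet cell markers 5 were lower, with a median of -0.51, and with the block 9 were lower and 1 higher. The lowered members included the hormone precursor gene Guca2a (3.87 to 0.353 CPM) and the transcription factor gene Creb3l1 (-0.96), while the mucin gene Muc2, which was at -0.84, passed only with the block (edgeR adjusted p = 0.34 without and 9.4e-04 with it). The Paneth cell list had 1 of 7 lower, Pla2g2a (72.2 to 26.7 CPM), with a list median of -0.54, and 4 lower with 1 higher under the block. Of the enteroendocrine markers only 2 were tested, and Isl1, a transcription factor, was lower (1.22 to 0.0541 CPM). Of 25 tested stem cell markers 5 were lower and none was higher, with a median of -0.00, and 8 were lower and 2 higher with the block. Lrig1, a receptor that restrains growth factor signals in stem cells, had 71.7, 74.6, 71.6 and 53.6 CPM in control 2 and 38, 38, 35.8 and 23.8 CPM in hairpin 2, a log2 fold change of -0.99 (SE 0.153, edgeR adjusted p = 0.0041). Lgr5, the Wnt-dependent receptor that defines crypt base stem cells, was at -0.28 (edgeR adjusted p = 0.19, and 0.0053 with the block). Muc2 was chosen after its values were seen.

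Fetal-like and regenerative markers, a set that marks injured or immature epithelium, were lower in 5 of 20 tested and higher in none, with a median of -0.38. With the block 12 were lower and 1 was higher. Emp1, an epithelial membrane protein, had 321, 324, 347 and 420.0 CPM in control 2 and 155, 149, 164 and 156 CPM in hairpin 2, a log2 fold change of -1.18 (SE 0.0870, edgeR adjusted p = 4.2e-05). Il1rn, the antagonist of the interleukin 1 receptor, had 18.1, 19.3, 19 and 27.2 CPM in control 2 and 2.19, 1.85, 4.87 and 3.82 CPM in hairpin 2, a log2 fold change of -2.84 (SE 0.271, edgeR adjusted p = 2.3e-04). F3, the tissue factor gene, fell from 47.6 to 25.8 CPM and Msln, the mesothelin gene, from 12.9 to 4.48 CPM. Ly6a, a marker of this state chosen after its values were seen, was at -0.46 (edgeR adjusted p = 0.39, and 0.0015 with the block).

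Markers of several gut regions were lower. Of 6 tested distal small intestinal genes 4 were lower, with a median of -1.65, among them the bile acid transporter genes Slc10a2 (-1.73) and Slc51a (-2.81), both near 1 CPM or less in control 2. Of 6 tested proximal genes 2 were lower, Gata4 and the iron exporter gene Slc40a1 (-0.55). Of 8 tested colon genes 3 were lower and 1 was higher. The lowered were Car1, Cd177 (5.44 to 1.44 CPM) and Saa1 (1.46 to 0.178 CPM), and the raised was the posterior homeobox gene Hoxd13, with 0.727, 0.702, 0.611 and 0.843 CPM in control 2 and 2.10, 1.38, 1.84 and 2.91 CPM in hairpin 2. Hoxb13 did not pass without the block (0.26, edgeR adjusted p = 0.12, and 0.0086 with it). Hoxb13 was chosen after its values were seen.

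Without the block, proliferation, translation and energy genes passed in few cases. The shares over all genes tested were 4.01% lower and 2.04% higher. Of 34 tested DNA replication genes 0 passed edgeR's test, and 5 were higher and 5 lower with the block, each near the share over all genes. Of 30 mitosis genes 1 was lower, Kif23 (-0.36), and 2 were higher and 3 lower with the block. Of 34 nuclear-encoded respiratory chain genes, 39 ribosomal protein genes and 25 cholesterol synthesis genes 0 passed, with medians of -0.07, -0.11 and -0.17. With the block, 3 respiratory chain genes were lower and 1 higher, 7 ribosomal protein genes were lower and 1 higher, and 6 cholesterol genes were lower. The 7 mitochondrially encoded mRNAs tested had log2 fold changes below 0 and a median of -0.31. None of the 7 passed without the block and 6 were lower with it. Notch pathway genes had 0 of 23 past the threshold, and 5 higher and 1 lower with the block. Of 37 tested genes of heterochromatin and histone methylation, 1 was higher, the DNA methyltransferase gene Dnmt3a (0.26), which lies on chromosome 12, and none was lower. With the block 5 were higher and 2 lower, Kmt5c among the latter. Wnt targets had 1 lower and 1 higher of 25, and 2 lower and 3 higher with the block, with a median of 0.03. A single called gene is 3.33% of the mitosis list, 2.70% of the heterochromatin list and 4% of the Wnt list. These shares are near those over all genes, so they are no result about the lists.

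Signalling lists moved in single members. The TGF-beta and BMP list had 3 of 30 higher and none lower, and 10 higher with 2 lower under the block. Tgfb3, a ligand of the family, had 2.09, 1.60, 2.10 and 1.85 CPM in control 2 and 4.77, 5.29, 4.22 and 4.65 CPM in hairpin 2, a log2 fold change of 1.31 (SE 0.148, edgeR adjusted p = 6.7e-04). Inhbb, an activin subunit on chromosome 1, was at 0.42, and Id2 was at 0.27. Tgfb3 and Id2 lie on chromosome 12, whose median is given below. Among NF-kB targets 4 of 22 were lower, including the chemokine gene Cxcl2 (3.20 to 1.06 CPM). Interferon-stimulated genes had 2 of 26 lower, the RNA sensor genes Dhx58 (-1.86) and Ifih1 (-0.61), with 6 lower and 1 higher under the block. Spred3, which restrains Ras signalling, fell from 20.7 ± 0.419 to 9.97 ± 0.388 CPM (SD, n = 4 each).

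**Figure D2:**
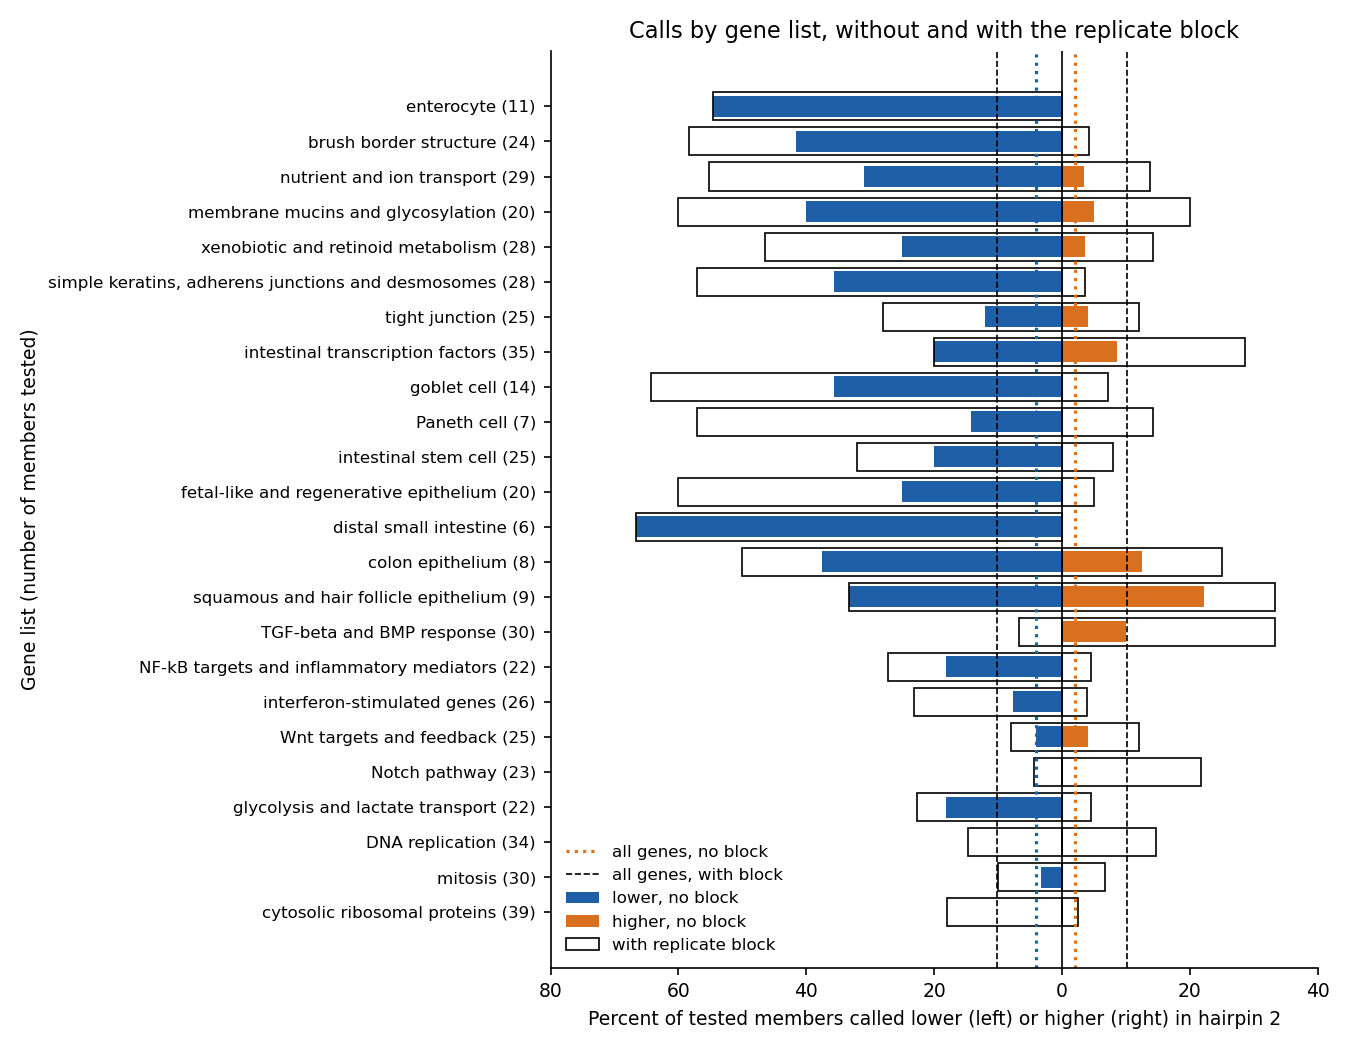
For 24 gene lists, the share of tested members called lower (to the left) and higher (to the right) in hairpin 2, in percent, by edgeR without the block (filled bars) and with the replicate number as a block (outlined bars); the number tested stands beside each name, and lines mark the shares over all genes tested, dotted without the block (4.01% lower, 2.04% higher) and dashed with it (10.1% and 10.2%). Epithelial lists extend to the left, and so do glycolysis and lactate transport and NF-kB targets (18.2% lower each without the block). Proliferation and ribosomal lists stay at or near 0 without the block, and the TGF-beta and BMP list extends to the right. Tgfb3 and Id2, raised members of that last list, lie on chromosome 12.

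Genes that rose did so by little, and those with the largest increases were low in control 2. Krt34, a keratin of hair, had 2.27, 2.15, 3.25 and 1.85 CPM in control 2 and 9.72, 6.43, 7.14 and 8.22 CPM in hairpin 2, a log2 fold change of 1.72 (SE 0.203, edgeR adjusted p = 8.6e-04). Chl1, a neural cell adhesion molecule, had 3.91, 4.26, 4.01 and 4.49 CPM in control 2 and 12.7, 13.3, 12.7 and 13 CPM in hairpin 2, a log2 fold change of 1.63 (SE 0.0970, edgeR adjusted p = 1.0e-05). Gpc3, a heparan sulfate proteoglycan of fetal tissues, had 3.04, 3.91, 3.17 and 3.85 CPM in control 2 and 9.36, 10.9, 8.11 and 11.3 CPM in hairpin 2, a log2 fold change of 1.51 (SE 0.146, edgeR adjusted p = 2.7e-04). The 4 hairpin 2 libraries lay above the 4 controls in each of the 3 genes. Ppargc1a, a coactivator of mitochondrial genes, rose 2.71-fold, Dapl1 rose 2.51-fold, and Igf2bp1, the oncofetal RNA-binding relative of Igf2bp3, rose 2.10-fold, from 2.45 to 5.16 CPM. Its relatives Igf2bp3, given above, and Igf2bp2 (-0.27) fell. The insulin-like growth factor binding protein genes Igfbp3 (0.62) and Igfbp5 (0.63) rose.

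Smaller increases included the metal-binding metallothionein gene Mt2 (13.2, 12.2, 11.7 and 12 CPM in control 2 and 20.3, 22.3, 21.7 and 18.1 CPM in hairpin 2), the hair follicle gene Tchh (0.87), the developmental transcription factor gene Pax3 (0.82), the secreted protease gene Htra1 (0.76) and the Wnt receptor gene Fzd3 (0.76). Raised genes with large counts included Tbx3 and Rac1, which rose by little. Tbx3, a transcription factor, had 1087, 1035, 1033 and 969.5 CPM in control 2 and 1267, 1225, 1199 and 1149 CPM in hairpin 2, a log2 fold change of 0.23 (SE 0.0590, edgeR adjusted p = 0.048), and the GTPase gene Rac1 was at 0.26. Hif1a, the hypoxia-inducible factor gene, rose from 485 ± 28.7 to 634 ± 54 CPM (SD, n = 4 each), and Hnrnpa0, an RNA-binding protein, from 465 ± 29.9 to 620.3 ± 48.2 CPM (SD, n = 4 each). Markers of hair, nerve and muscle cells moved in both directions. Of squamous and hair follicle genes 2 of 9 were higher and 3 lower, of neuron and glia genes 2 of 7 were higher and 1, L1cam (-1.10), was lower, and of striated muscle genes 1 of 8 was higher and 4 lower, among them Acta1 (10.7 to 1.73 CPM). Summed CPM of the 15 listed neuron and glia genes ran from 36.5 to 41.3 in control 2 and from 44.7 to 50.8 in hairpin 2, with 9 of the 15 under 1 CPM in all libraries. The part of other cell types in these increases was not tested.

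Raised genes were unevenly placed on the genome. Chromosomes 5, 12 and 13 had median log2 fold changes of 0.11, 0.13 and 0.18, against -0.04 to 0.04 on the 17 others, and each was above 0 in all 4 pairs of equal replicate number. These 3 chromosomes held 14.3% of the genes tested and 133 of the 288 raised genes, which is 6.60% of their genes against 1.28% elsewhere. They held 39 of the 566 lowered genes, 1.94% against 4.35% elsewhere. Of the 21 genes over 2-fold higher, 3 lay on them. Tbx3, Rac1 and Ppargc1a lie on chromosome 5, and Hif1a, Tgfb3, Id2 and Dnmt3a on chromosome 12. Hnrnpa0, Slc9a3 and the lowered genes Cdhr2 and Pfkp lie on chromosome 13, while Krt34, Chl1 and Gpc3 lie elsewhere. The part of this shift in the single increases was not tested.

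**Figure D3:**
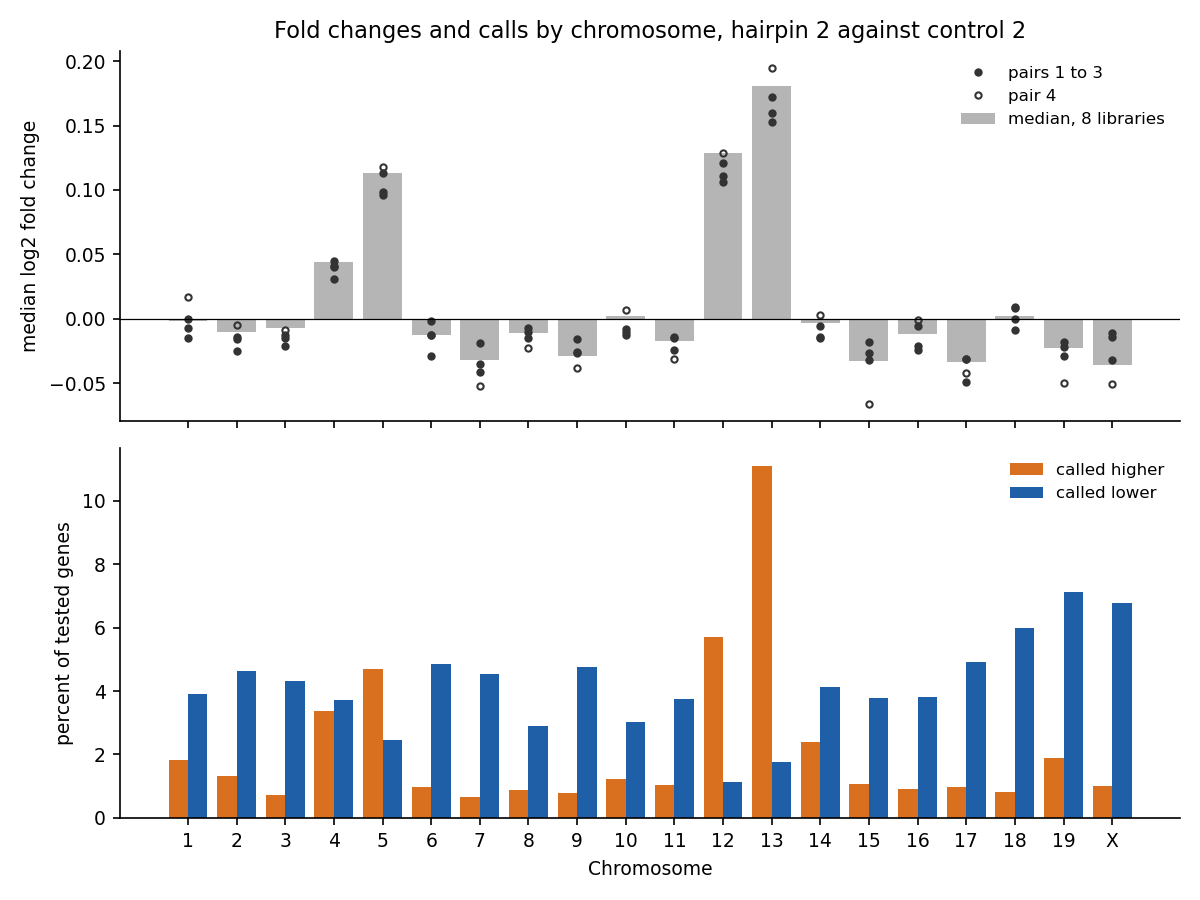
Upper panel, the median log2 fold change (hairpin 2 over control 2) of the genes tested on each chromosome as a bar, with the medians of the 4 pairs of equal replicate number as points. Lower panel, the percent of tested genes on each chromosome called higher and lower; chromosomes 5, 12 and 13 have the highest medians and the largest shares called higher.

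The size of the decreases went with the level in control 2. Of the genes over 2-fold lower, 82.0% lay below the median control level of all genes tested, as did 87.5% of those over 4-fold lower. That median was 6.30 CPM per kilobase of exon. Genes lowered by less than 2-fold lay below it in 38.2% of cases and raised genes of any size in 39.6%. Of the 21 genes over 2-fold higher, 20 lay below it (95.2%), so low control levels went with large changes in either direction. The lowered genes kept a median of 23.4% in the lowest level bin, up to 0.25 CPM per kilobase, and 79.4% in the highest, above 64. The share of tested genes over 2-fold lower was 4.08 to 4.80% in the 4 bins up to 2 CPM per kilobase and 0.503 to 1.18% in the 5 bins above 4. The level and the fold share the control libraries, and counts limit what can pass: the smallest change called was 0.76 on the log2 scale in the lowest bin and 0.23 in the highest. The share lowered by any amount varied less, from 2.71 to 6.03% over the bins.

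**Figure D4:**
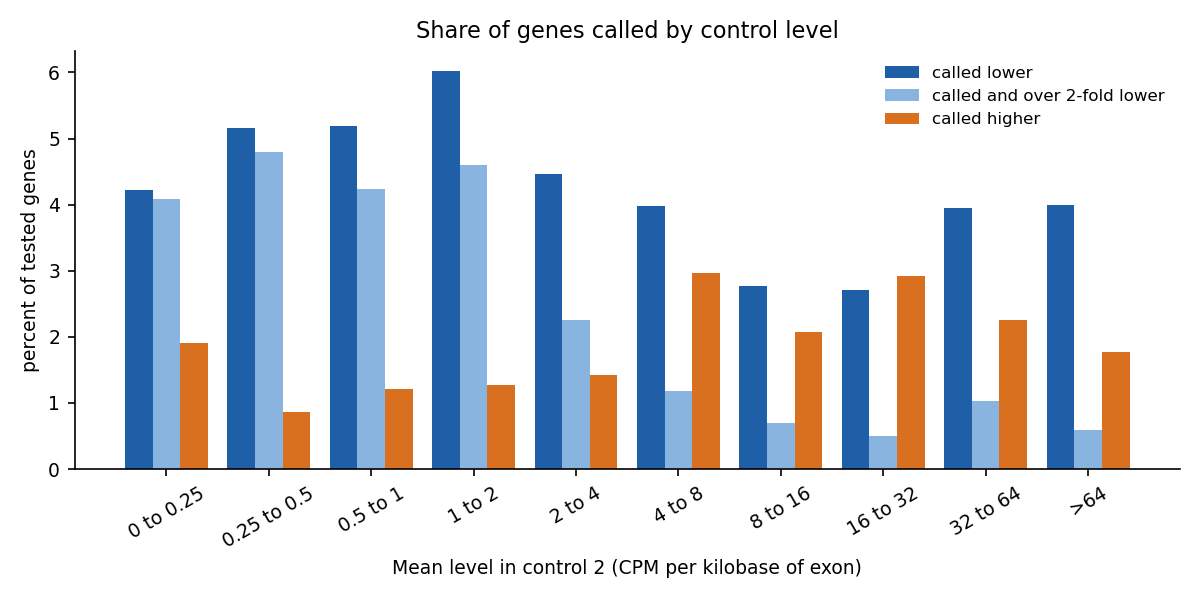
Percent of tested genes called lower, over 2-fold lower and higher in 10 bins of mean control 2 level (CPM per kilobase of exon, bin edges on the horizontal axis). The share over 2-fold lower is 4.08 to 4.80% in the bins up to 2 CPM per kilobase and 0.503 to 1.18% in the bins above 4, while the share called lower varies less.

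Taking the replicate number as a block changed how many genes passed far more than which strong ones did. With the block 2880 genes passed (20.4%), 1447 higher (10.2%) and 1433 lower (10.1%), near equal numbers, among them 853 of the 854, each in the same direction. The 1 lost was 1810062G17Rik. The block thus added 1159 higher and 868 lower genes, of which 1061 and 720 changed by less than 1.5-fold, and their median log2 fold changes were 0.23 and -0.27. The count over 4-fold lower went from 120 to 121 and that over 2-fold lower from 283 to 339, while over 2-fold higher went from 21 to 48. On chromosomes 5, 12 and 13 the blocked fit called 28.3% of tested genes higher, against 7.23% elsewhere.

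Among the genes called only with the block, replicate 4 was often the extreme library of both groups. The block removes spread shared by equal replicate numbers, so this follows in part from how these genes were picked. It was the highest of both groups or the lowest of both in 61.3% of those 2027 genes, against 34.4% of the 854 called without the block and 49.4% of all genes tested. Abcc2, a drug and bile pigment exporter, had 154, 153, 164 and 225 CPM in control 2 and 93.8, 95, 104 and 156 CPM in hairpin 2, and Abcb1a, the drug efflux pump P-glycoprotein, had 47.7, 55.7, 59.1 and 125 CPM in control 2 and 27, 26.6, 28.6 and 78.6 CPM in hairpin 2. In both genes replicate 4 was the highest of each group, and the groups overlapped. The block gave edgeR adjusted p-values of 1.4e-06 and 3.9e-06, against 0.068 and 0.28 without it. The nuclear receptor gene Pparg was at -0.62 (edgeR adjusted p = 2.7e-05 with and 0.066 without the block) and the sialidase gene Neu1 at -0.62. On the higher side, the tyrosine kinase gene Syk had 27.1, 26.4, 25.1 and 43.3 CPM in control 2 and 43.6, 42.7, 39.6 and 64.5 CPM in hairpin 2, and the metallothionein gene Mt1 had 205, 177, 179 and 144 CPM in control 2 and 262, 237, 247 and 188 CPM in hairpin 2. Mt1 was lowest in replicate 4 of both groups and passed with the block (edgeR adjusted p = 3.5e-05, against 0.085). Mt1 and Mt2 are neighbouring relatives, and both were higher in every hairpin library than in the control library of the same number. Col26a1, a collagen gene, had 4.54, 3.61, 4.39 and 13.2 CPM in control 2 and 11.1, 10.2, 13 and 68.6 CPM in hairpin 2. Replicate 4 was the highest of both groups and enlarged the fold of the group means. Replicates 1 to 3 of hairpin 2 also lay above replicates 1 to 3 of control 2.

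Replicate 4 weighed on the count of calls as a whole. Without both replicate 4 libraries 2396 genes passed, 1121 higher and 1275 lower, and without hairpin 2 replicate 4 alone 1409. Leaving out any other single library gave 453 to 674. Krt20, Car1, Bex1, Rgl3, Fmnl1 and Igf2bp3 passed in all 8 fits that left out 1 library. Of 115 called genes named here, 32 lost their call in at least 1 of the 8 fits: Slc10a2 and Hif1a in 1, Slc40a1, Htra1 and Slc16a1 in 2, Muc13, Ifih1, Igfbp3 and Rnf217 in 3, Car12, Gcnt3, Saa1, Pax3 and Il22ra1 in 4, Zfp503, Cldn8, Kif23, Igfbp5, Fzd3 and Slc30a5 in 5, Nr5a2, Id2, Inhbb, Igf2bp2 and Il6st in 6 and St3gal1, Dnmt3a, Tbx3, Rac1, 1810062G17Rik, Rnf227 and Pfkm in 7. Their edgeR adjusted p-values in those fits reached 0.172, and none changed direction.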

How the data were processed

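Stranded libraries were made from poly(A) RNA, per the labels' protocols. The authors deposited raw counts for each gene, all of them whole numbers. The tools bcl2fastq 2.20, FastQC, STAR, featureCounts and DESeq2 and the build GRCm38 are named per the submitters' processing notes. The strand setting of counting was not given in the sources used here. The 8 files list 17490 genes, 198 of them with no count and none without a gene name. Symbols, positions and exon lengths came from GENCODE M21 (GRCm38), which matched 17471, and promoters from RefSeq (GRCm38.p6).

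Both groups were compared with the quasi-likelihood test of edgeR 4.0.16 in R 4.3.3, with TMM factors, filterByExpr and Benjamini-Hochberg adjustment at 0.05, with no block and no fold threshold, checked on simulated counts. CPM are counts scaled to the TMM-adjusted library total. Libraries of a group differed by more than counting noise in each pair, with a chi-square per gene of at least 3.01. Alternatives were DESeq2 size factors, upper-quartile factors, no filter, a mean of 1 CPM, DESeq2 1.42.0, voom (limma 3.58.1), the replicate block, a fold of 1.2 and leaving out libraries. Deviations from group means of libraries with equal numbers correlated at 0.249, 0.153, 0.247 and 0.598. Each is above 0.1, and equal numbers were treated as pairs in the blocked fits and pair medians, although the labels do not state a pairing. Unequal numbers gave 0.108 to 0.216 among replicates 1 to 3 and -0.391 to -0.268 where 1 of them was replicate 4. The correlations thus set replicate 4 apart but cannot tell pairs from other combinations among replicates 1 to 3. Medians of pairs by chromosome used log2(CPM + 0.5).

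Gene lists, 57 in all, are described by counts and medians, with no test of lists. Of them, 44 had a lowered member and 23 a raised one, and 36 had more lowered than raised against 4 with more raised. Members and lists were chosen with earlier results of these data known. Named genes are Kmt5c and Kmt5b, the 15 largest decreases and 15 largest increases called with at least 5 CPM in a group, no overlap and an established symbol, the 8 over 2-fold lower with the highest control level, the 8 raised with the highest hairpin level, up to 4 members by p of each list with a call, and 8 per direction called only with the block. Not all of these are printed, and some that met the rule are not reported here. Other genes in the text were picked with their values known. H2afy2, Mpp1, Igf2bp3, Pfkp, Pfkm, Vil1, Lrig1, Slc51a, Tgfb3, Htra1, Tbx3, Rac1 and Hif1a overlap a gene of over 5 CPM on the opposite strand, so their counts are uncertain where counting ignored strand. Tables and figures used Python 3.11.15, pandas 2.3.3 and matplotlib 3.10.9.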

Additional observations from a re-analysis of the deposited data

Results flagged for a closer look

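A library stood apart from the 3 others of its group, by a gap to the nearest of them that exceeds Dixon's limit, which about 1 in 20 groups pass by chance, in 45 of 280 groups over the 140 genes named. Of these, 34 were replicate 4, which in both groups also lay apart from the other libraries on the second principal component, and the cause was not tested.

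Control 2 replicate 4 was the highest of its group in Efcab12 (7.3 CPM against 4.63 to 4.96), Mpp1 (28.8 CPM against 21.9 to 23), Cdhr2 (50 CPM against 28.6 to 31.3), Muc13 (275 CPM against 94.3 to 110) and Muc3 (22.6 CPM against 6.68 to 8.97). The same held for Gcnt3 (61.5 CPM against 33.8 to 36.8), Guca2a (7.3 CPM against 2.48 to 3.01), Muc2 (53.3 CPM against 18.7 to 22.3), Pla2g2a (99.7 CPM against 59.5 to 64.8) and Il1rn (27.2 CPM against 18.1 to 19.3). The same held for Msln (16.6 CPM against 11.3 to 11.9), Ly6a (176 CPM against 106 to 113), Slc40a1 (55 CPM against 38.9 to 40.6), Abcc2 (225 CPM against 153 to 164) and Abcb1a (125 CPM against 47.7 to 59.1). The same held for Neu1 (389 CPM against 193 to 214), Syk (43.3 CPM against 25.1 to 27.1) and Col26a1 (13.2 CPM against 3.61 to 4.54). Control 2 replicate 4 was the lowest of its group in Lrig1 (53.6 CPM against 71.6 to 74.6). Hairpin 2 replicate 4 was the highest of its group in Cdx2 (242 CPM against 192 to 198), Muc13 (72 CPM against 36.5 to 37.2), Gcnt3 (28.8 CPM against 13.7 to 15.4), Pla2g2a (43.3 CPM against 20 to 22.7) and Abcc2 (156 CPM against 93.8 to 104). The same held for Abcb1a (78.6 CPM against 26.6 to 28.6), Neu1 (226 CPM against 140 to 147), Syk (64.5 CPM against 39.6 to 43.6) and Col26a1 (68.6 CPM against 10.2 to 13). Hairpin 2 replicate 4 was the lowest of its group in Ush1c (17.8 CPM against 22.7 to 23.2), Hnf4a (101 CPM against 154 to 160), Krt8 (203 CPM against 293 to 308), Lrig1 (23.8 CPM against 35.8 to 38) and Hoxb13 (209 CPM against 271 to 280). The same held for Igf2bp2 (190 CPM against 216 to 219).

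Control 2 replicate 2 was the highest of its group in Rnf227 (10.8 CPM against 9.62 to 9.79). Control 2 replicate 2 was the lowest of its group in Spred3 (20.1 CPM against 20.8 to 21). Control 2 replicate 3 was the highest of its group in Dsc2 (220 CPM against 195 to 196). Hairpin 2 replicate 1 was the highest of its group in Krt18 (748 CPM against 714 to 718). Hairpin 2 replicate 2 was the highest of its group in Lct (0.197 CPM against 0 in the others). Hairpin 2 replicate 2 was the lowest of its group in Krt20 (5.05 CPM against 7.36 to 7.62) and Ppargc1a (11.3 CPM against 12.8 to 13). Hairpin 2 replicate 3 was the highest of its group in P2ry1 (2.81 CPM against 0.892 to 1.1), Vim (5.63 CPM against 4.32 to 4.5), Rac1 (439 CPM against 385 to 394) and Isl1 (0.216 CPM against 0 in the others).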

How the results depend on the processing

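No gene named with a log2 fold change reversed its direction under these settings, but the counts of calls moved. With the replicate number as a block 2880 genes passed, 1447 higher, 1433 lower and 48 over 2-fold higher, and with the block but without both replicate 4 libraries the counts were 3529, 1776, 1753 and 55. This pairing rests on correlations in the data and not on the labels. Without both replicate 4 libraries and with no block they were 2396, 1121, 1275 and 43. Voom with library quality weights gave 2466, 1152, 1314 and 45, and the DESeq2 Wald test gave 1346 in all, 570 of them higher. A test against a fold of 1.2 left 331, 26 higher, 305 lower and 13 over 2-fold higher. A mean of at least 1 CPM left 75 genes over 4-fold lower and 13 over 2-fold higher. Leaving out 1 library at a time gave 453 to 1409 genes in all, 83 to 564 higher, 365 to 845 lower and 13 to 35 over 2-fold higher, while those over 2-fold lower stayed between 231 and 340 and those over 4-fold lower between 107 and 151. Kmt5c passed with the DESeq2 Wald test (-0.20), voom (-0.17), the block (-0.20) and the block without replicate 4 (-0.17), and it was at -0.23 to -0.16 without 1 library. The share of genes over 2-fold lower that lay below the median level was 86.9% by the mean of both groups and 87.6% by CPM. Causes of these differences were not tested. Depth limits what can pass: the smallest log2 change called was 0.83 among genes at 0.5 to 1 CPM in control 2, against 0.19 above 64 CPM.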

Other observations

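Symbol families that need no choice of members are described here by their counts, and the genes named with them were chosen after their values were seen. Of 231 tested solute carrier (Slc) genes 17 were lower and 3 higher without the block, and 47 lower and 29 higher with it, with a median log2 fold change of 0.00. Over all genes tested, 4.01% were lower and 2.04% higher. The lowered carriers included Slc17a9, a vesicular nucleotide transporter, from 27.6 ± 6.40 to 9.19 ± 1.24 CPM (SD, n = 4 each), and Slc18b1, a polyamine transporter, from 9.28 ± 0.573 to 3.81 ± 0.285 CPM (SD, n = 4 each). The raised were Slc9a3 and the zinc transporter genes Slc30a1 and Slc30a5. Slc9a3 and Slc30a5 lie on chromosome 13, whose median log2 fold change was 0.18, and Slc30a1 lies on chromosome 1. Slc30a1 had 28.5, 27.6, 27.4 and 23.3 CPM in control 2 and 35.3, 32.8, 40.7 and 38.3 CPM in hairpin 2, a log2 fold change of 0.46 (SE 0.0900, edgeR adjusted p = 0.016), and Slc30a5 was at 0.26. Of the metallothionein genes, which bind zinc, Mt2 passed at 0.75, and Mt1, at 0.41, did so only with the block. No list of zinc-responsive genes was examined.

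Of 25 tested genes of the interleukin (Il) prefix, 4 were lower and 1 higher. The lowered were Il1rn and the receptor subunit genes Il17re, from 1.72 ± 0.363 to 0.272 ± 0.104 CPM (SD, n = 4 each), Il15ra (-2.35) and Il22ra1 (-0.996), and the raised was Il6st (0.32), the shared receptor subunit gp130, on chromosome 13. Of 71 RING finger (Rnf) genes 6 were higher and 1 lower. The largest increases were those of Rnf217 (1.08) and Rnf227 (0.40). Of 315 zinc finger (Zfp) genes 4 were higher and 7 lower.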
